A study of Homo sapiens with 12 samples.

Results

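The genes described here are 9 named components of the Hedgehog pathway, GLI1, GLI2, GLI3, PTCH1, SMO, SUFU, KIF7, GPR161 and SPOP. They were listed by name, with earlier results of these data known. All 9 were found by symbol among the 21574 features of the expression table. MDA-231-LM2, the cells studied, is a lung-metastatic derivative of MDA-MB-231, a line of human breast cancer. RNA was sequenced from 12 libraries in 4 groups of 3: a population labelled Ctrl, the same with IGF1 (Ctrl+IGF1), a population labelled TMEM216, and that population with IGF1 (TMEM216+IGF1). The labels name the populations without a construct, a clone number, an IGF1 dose or a time, and nothing states that replicates were separate cultures, so a p-value here measures only the spread between libraries, which may be technical.

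Hedgehog ligands bind the receptor PTCH1, which otherwise keeps the membrane protein SMO inactive. Active SMO gathers in the primary cilium, and the GLI transcription factors are then no longer processed into repressors. GLI3 acts largely as a repressor, GLI2 is the main activator, and GLI1 is an activator that is itself switched on by the pathway, so GLI1 and PTCH1 transcripts are widely read as its output. TMEM216 encodes a protein of the ciliary transition zone, the gate at the base of the cilium through which pathway components pass. IGF1 is a growth factor that signals through the receptor IGF1R. In breast cancer cells of this lineage GLI2 is also known as a gene that TGF-beta signalling can switch on, with PTHLH, a bone-resorption hormone, among its targets.

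The promoter of PTCH1 is printed because it is the one promoter among these genes that holds the exact consensus of the GLI factors. The consensus GACCACCCA was searched on both strands of RefSeq promoter windows (GRCh38.p14), each from 250 bases before to 50 bases after an annotated start. The table held 7 of the 9 genes, all but GLI1 and GLI3. PTCH1 had 5 windows, and the exact consensus lay in 1 of them. In its 250 bases before the start, chr9:95509267-95509516 on the minus strand, the match stands at bases 79 to 87, and the capitals mark it, read on the strand opposite to the consensus.

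PTCH1: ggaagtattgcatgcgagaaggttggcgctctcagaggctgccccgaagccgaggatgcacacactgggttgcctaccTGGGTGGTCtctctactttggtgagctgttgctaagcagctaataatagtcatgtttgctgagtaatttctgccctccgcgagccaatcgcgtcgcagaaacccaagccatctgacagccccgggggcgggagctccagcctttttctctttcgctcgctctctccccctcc

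An exact match was present for 0.297% of the 27305 genes with a window, and for 1 of the 59 pathway genes found in the table, PTCH1 itself. With at most 1 mismatch allowed the share was 8.18% of genes, and PTCH1 was again the only one of the 7. A match describes letters in a window and is not a measured binding site.

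The labelled manipulation was visible in the transcript it names. TMEM216 stood at 24.0 to 30.1 TPM (a transcript level scaled by length, summing to a fixed total in each library) in the 6 Ctrl libraries and at 163 to 250 TPM in the 6 TMEM216 libraries. The mesenchymal and basal genes VIM, CD44, EGFR, AXL and CAV1 were high, VIM at 5755 to 7272 TPM, and ESR1, PGR and CDH1 were at most 0.204 TPM, while ERBB2 (31.7 to 42.9 TPM) and EPCAM (11.9 to 15.7 TPM) were not low. Of 8 markers of blood, endothelial, fibroblast and liver cells, 7 were under 1 TPM in every library, with CD3E at 0, and the 8 together summed to 1.23 to 2.52 TPM. Ctrl+IGF1 replicate 3 stood farthest out and TMEM216 replicate 1 next: they scored -31.0 and -19.4 along the leading principal component (22.0% of variance), where the others ran from -8.44 to 18.2, and ribosomal protein genes took 16.4% and 14.2% of their TPM, against 12.1% to 14.0% elsewhere. TMEM216 replicate 3 (18.2) and TMEM216+IGF1 replicate 2 (18.1) lay nearly as far out as TMEM216 replicate 1, on the opposite side. Every one of the 7 Hedgehog genes that could be tested had its lowest level in Ctrl+IGF1 replicate 3 (5 genes) or TMEM216 replicate 1 (2 genes). The share of all features lowest there was not counted, so this cannot be read as a trait of these genes. Features in general were lower in both, with a median ratio to the average library of 0.883 and 0.964, against 0.990 to 1.04 elsewhere. TMEM216 replicate 1 also held the highest KIF7 level.

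The pathway was unevenly represented. SPOP was the most abundant of the 9 genes at 57.2 TPM (mean of 12 libraries), followed by KIF7 at 33.8, SUFU at 12.5, GPR161 at 7.58, GLI3 at 7.43, PTCH1 at 2.01, GLI2 at 1.24 and GLI1 at 0.0726 TPM, and SMO was listed at 0. SPOP, KIF7, SUFU and GPR161, whose products restrain, position or degrade GLI proteins, each had a higher mean than the receptor PTCH1 and the activators GLI2 and GLI1. Most neighbours in that order were separated in all 12 libraries with no overlap of their ranges. The exceptions were GPR161 and GLI3, where GPR161 was higher in 6 of 12 libraries, PTCH1 and GLI2, where PTCH1 was higher in 11 of 12 with overlapping ranges, and GLI1 and SMO. For scale, the median tested feature had a mean of 23.5 TPM, which only SPOP and KIF7 exceeded.

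**Figure D1:**
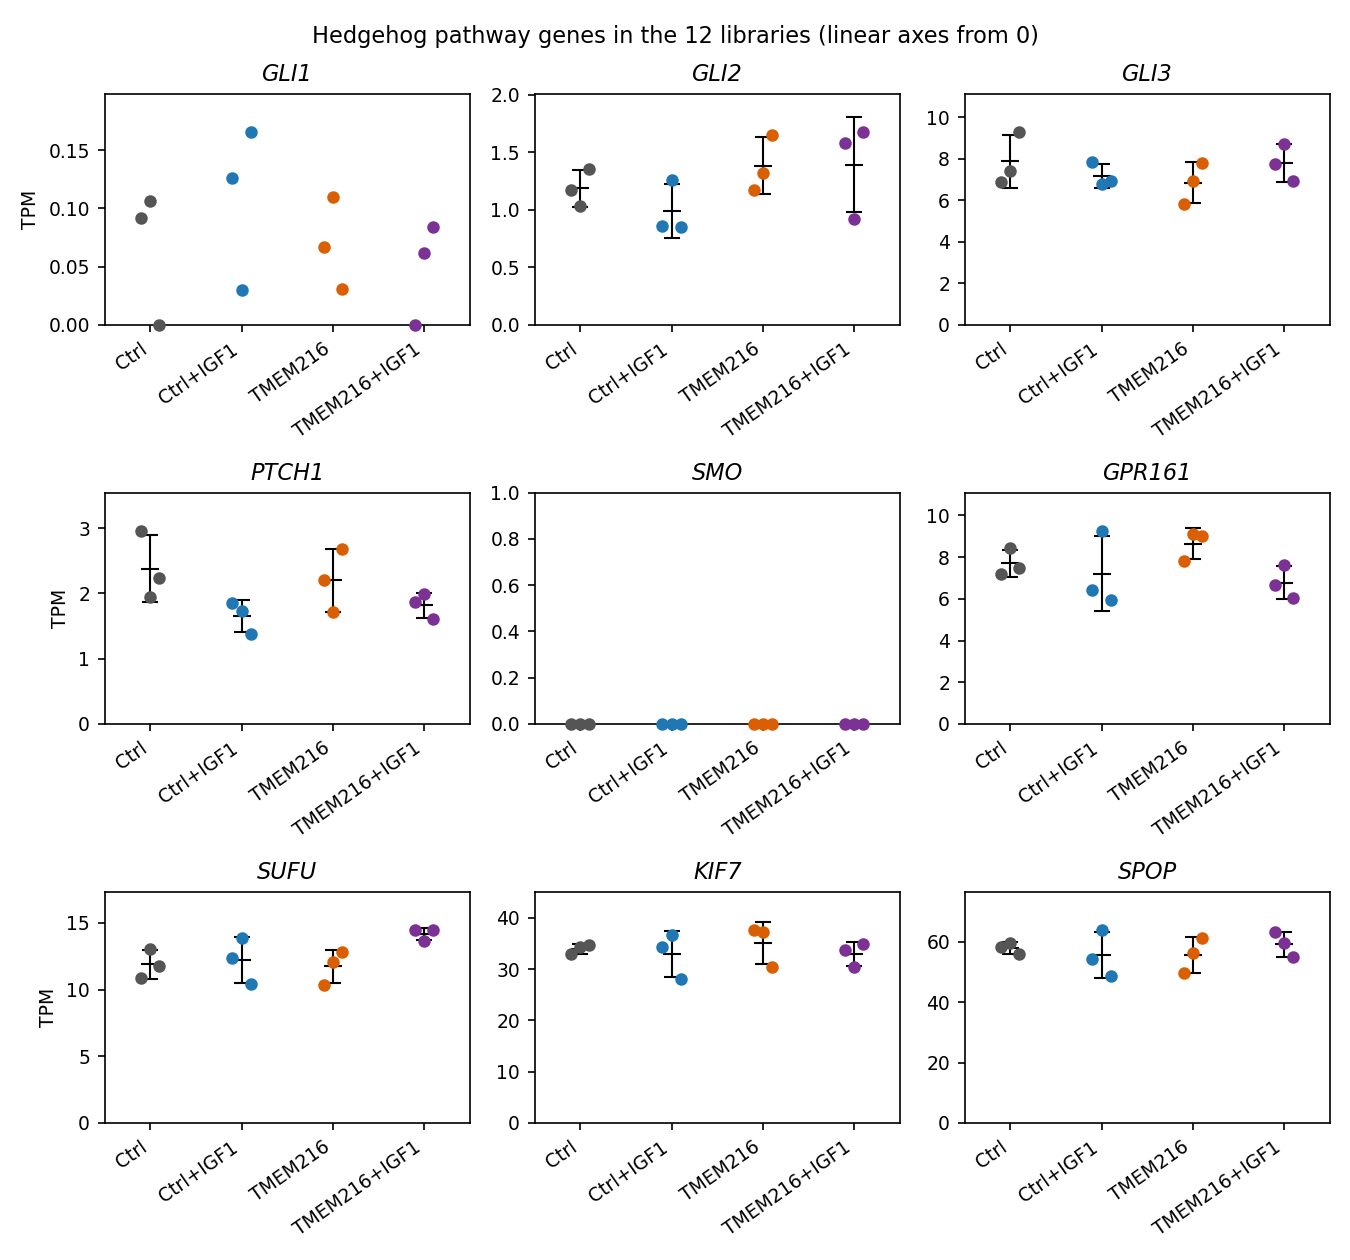
TPM of the 9 Hedgehog genes (vertical axes, linear from 0, a scale of its own for each gene) in each library, by group; points are libraries, and bars are the mean and SD of 3 libraries, left out for GLI1 and SMO, which have zeros. GLI1 stays at or under 0.165 TPM, SMO is listed at 0 throughout, and the groups overlap for most of the other genes.

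SMO, the transducer on which canonical signalling depends, was listed at 0 TPM in all 12 libraries. So were 3666 of the 21574 features (17.0%). None of 30 widely expressed genes, chosen after values were seen, was at 0 in any library (lowest value 28.7 TPM). At such levels they are no check on a feature as low as SMO. SMO is listed among the last 3515 features of the table, where the chromosome order starts a second time; 73.0% of those features were at 0 in every library, against 6.09% of the features before them, and their highest mean was 0.354 TPM. Its neighbours on the chromosome, TSPAN33 and AHCYL2, had means of 1.21 and 5.25 TPM. Whether the 0 of SMO reflects the cells or the way the table was made was not tested.

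GLI1 was near 0 throughout. It read 0.0921, 0.106 and 0 TPM in Ctrl, 0.126, 0.0297 and 0.165 in Ctrl+IGF1, 0.0671, 0.109 and 0.0305 in TMEM216, and 0, 0.0614 and 0.0838 in TMEM216+IGF1. No group stood apart, and the gene, never at 1 TPM, was not tested. GLI1 overlaps ARHGAP9 on the opposite strand, and no source used here says whether counting used strand.

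GLI3 made up most of the GLI transcripts. It was 79.7% to 89.9% of the summed TPM of GLI1, GLI2 and GLI3 (median 84.3%), and GLI2 9.50% to 19.3% (median 15.0%). GLI3 read 6.91, 7.42 and 9.29 TPM in Ctrl, 7.83, 6.78 and 6.93 in Ctrl+IGF1, 5.82, 6.95 and 7.78 in TMEM216, and 7.77, 8.71 and 6.91 in TMEM216+IGF1. The 4 ranges overlapped. GLI2 read 1.17, 1.04 and 1.35 TPM in Ctrl, 0.864, 1.26 and 0.848 in Ctrl+IGF1, 1.17, 1.32 and 1.65 in TMEM216, and 1.58, 0.921 and 1.68 in TMEM216+IGF1. Its 2 highest groups were both TMEM216, yet 1 library of TMEM216+IGF1 lay inside the Ctrl+IGF1 range. The TMEM216 libraries at 1.17 and 1.32 TPM also lay inside the Ctrl range. SUFU, which binds GLI proteins and retains them in the cytoplasm, had 1.11 to 1.72 times the summed GLI level.

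PTCH1, both receptor and target gene, read 2.95, 1.94 and 2.24 TPM in Ctrl and 1.85, 1.73 and 1.38 in Ctrl+IGF1. Every Ctrl library was above every Ctrl+IGF1 library. It read 2.21, 1.71 and 2.68 TPM in TMEM216 and 1.86, 1.99 and 1.61 in TMEM216+IGF1, and those ranges overlapped.

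GPR161, a ciliary receptor that keeps protein kinase A active and GLI3 in repressor form, read 7.21, 8.44 and 7.47 TPM in Ctrl and 6.42, 9.25 and 5.94 in Ctrl+IGF1. It read 7.81, 9.13 and 9.01 TPM in TMEM216 and 6.65, 7.63 and 6.06 in TMEM216+IGF1. The last pair did not overlap, with the IGF1 libraries lower. SUFU read 10.9, 13.1 and 11.8 TPM in Ctrl, 12.4, 13.9 and 10.4 in Ctrl+IGF1, 10.4, 12.1 and 12.8 in TMEM216, and 14.5, 13.7 and 14.4 in TMEM216+IGF1, so that in the TMEM216 population every IGF1 library was above every library without it.

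KIF7 is the kinesin that organises GLI proteins at the ciliary tip, and SPOP the adaptor that directs GLI2 and GLI3 to degradation. Relative to their levels, these were the steadiest of the 7 genes that could be tested. KIF7 ran from 28.0 to 37.6 TPM and SPOP from 48.8 to 63.9 TPM over the 12 libraries, with coefficients of variation of 8.69% and 8.46%, against 23.7% for GLI2 and 22.2% for PTCH1. KIF7 averaged 33.9 ± 0.929 TPM in Ctrl and 35.1 ± 4.10 in TMEM216 (SD, n = 3 each), and SPOP 58.0 ± 1.97 and 55.7 ± 5.88 TPM. KIF7 overlaps TICRR on the opposite strand, so its level is uncertain to the extent that reads of the 2 genes could be exchanged.

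No tested Hedgehog gene passed the threshold between the Ctrl and TMEM216 populations. The test was limma on log2(TPM + 1), fitted to 13071 features with at least 1 TPM in 3 or more libraries, with Benjamini-Hochberg adjusted p under 0.05 over all of them as the call. That filter passed 7 of the 9 genes, all but GLI1 and SMO, and for low genes such as GLI2 and PTCH1 the log2(TPM + 1) scale makes a change look smaller than it is. Averaged over the IGF1 conditions (6 libraries against 6), 0 of 7 were called, where 5.22% of all features were. The difference TMEM216 minus Ctrl ran from -0.04 for GLI3 to 0.19 for GLI2 on the log2 scale, with a median of 0.02, and that of all features was -0.00054. GLI2, at 1.09 ± 0.208 TPM in Ctrl and 1.39 ± 0.303 in TMEM216 (SD, n = 6 each), had the smallest adjusted p by limma, 0.429, with a 95% interval of -0.07 to 0.45. PTCH1 stood at 2.02 ± 0.537 and 2.01 ± 0.390 TPM, a log2 difference of 0.0042 with an interval of -0.24 to 0.25. The other differences were 0.04 for GPR161, 0.10 for SUFU, 0.02 for KIF7 and 0.02 for SPOP, and none of these intervals excluded 0. At an unadjusted p under 0.05 the count was also 0 of 7, against 20.1% of all features.

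The same held within each IGF1 condition. Without IGF1, 0 of 7 were called against 1.09% of all features, and the log2 differences ran from -0.17 for GLI3 to 0.15 for GPR161. That of GLI3 was -0.063 without Ctrl replicate 3, -0.077 without TMEM216 replicate 1 and -0.26 without TMEM216 replicate 3. With IGF1, 0 of 7 were called against 1.61%, and they ran from -0.06 for GPR161 to 0.26 for GLI2, the latter 0.17 without TMEM216+IGF1 replicate 3 and 0.41 without TMEM216+IGF1 replicate 2. At an unadjusted p under 0.05 the counts were 0 of 7 in both, against 13.2% and 15.8% of features. No Hedgehog gene separated the libraries of the compared groups without overlap, as 21.8% of features did without IGF1, 19.7% with it and 4.39% over 6 against 6.

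**Figure D2:**
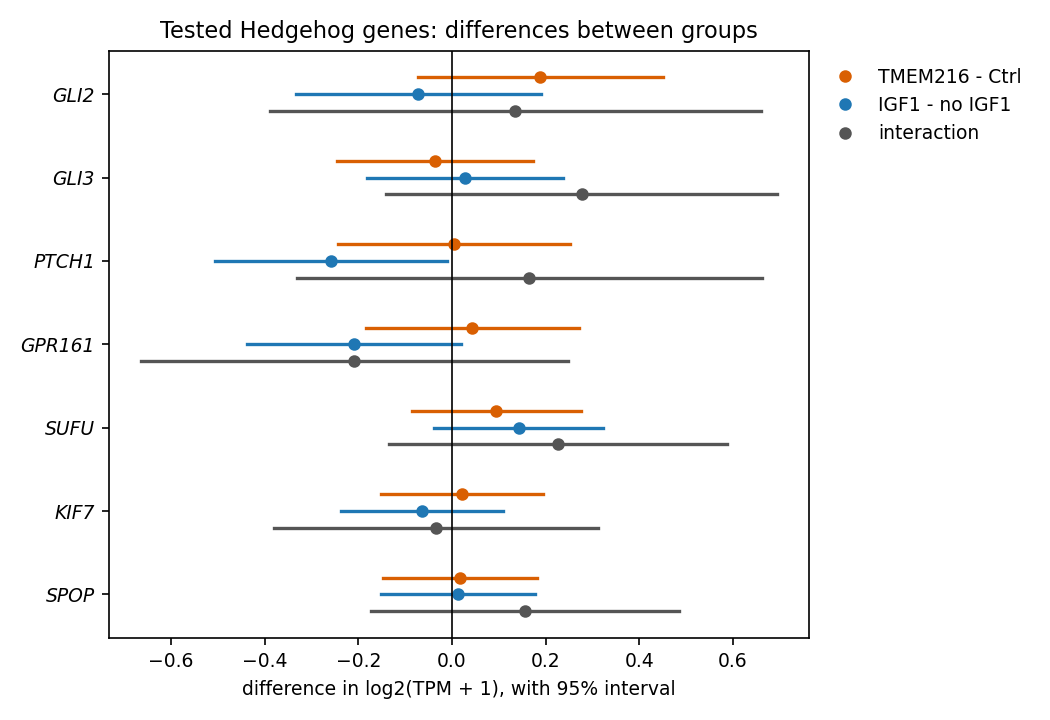
Difference in log2(TPM + 1) for the 7 tested Hedgehog genes; points are limma estimates and lines their 95% intervals, for TMEM216 minus Ctrl averaged over IGF1, IGF1 minus no IGF1 averaged over populations, and the interaction (the IGF1 difference in TMEM216 minus that in Ctrl). The interval of PTCH1 with IGF1 is the one that excludes 0, before adjustment; no gene passes after it.

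The IGF1 comparisons gave no call among these genes either, and few anywhere. In Ctrl, 0 of 7 were called against 0.0306% of features, and in TMEM216 0 of 7 against 0.0153%. Averaged over the populations 0 of 7 were called against 0.0536%. PTCH1 had the largest difference in Ctrl: 2.38 ± 0.519 TPM without and 1.66 ± 0.244 with IGF1 (SD, n = 3 each), a log2 difference of -0.34 (SE 0.16, limma adjusted p = 0.673). Its 2 sets of libraries did not overlap, which was so for 14.6% of all features. Without Ctrl replicate 1, its highest library, the difference was -0.22, and without Ctrl replicate 2 it was -0.435. Over all features the median difference for IGF1 in Ctrl was -0.088. It was -0.024 without Ctrl+IGF1 replicate 3, the library with the lowest PTCH1 level. SUFU had the highest value in that comparison, 0.03. Over both populations PTCH1 stood at 2.29 ± 0.459 and 1.74 ± 0.216 TPM (SD, n = 6 each), with a log2 difference of -0.26 (SE 0.11, limma adjusted p = 0.827, unadjusted 0.043), and it was 1 of 7 under an unadjusted p of 0.05, against 5.88% of features. The 6 libraries with IGF1 overlapped the 6 without it; 0.207% of features did not overlap. In Ctrl, 0 of 7 were under an unadjusted 0.05 (6.89% of features).

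In the TMEM216 population GPR161 was 8.65 ± 0.733 TPM without and 6.78 ± 0.796 with IGF1 (SD, n = 3 each), a log2 difference of -0.31 (SE 0.15). SUFU was 11.8 ± 1.25 and 14.2 ± 0.449 TPM, a log2 difference of 0.26 (SE 0.12, unadjusted p = 0.049 by limma). Neither passed (limma adjusted p = 1.00 for both). These were the 2 of 7 whose libraries did not overlap there, as for 10.2% of features, and SUFU was the 1 of 7 under an unadjusted 0.05 (4.77% of features). TMEM216 replicate 1, 1 of the 2 libraries with the lowest component scores, gave the lowest SUFU value. Without it the SUFU difference was 0.18, and without TMEM216 replicate 3 it was 0.31. The remaining averaged IGF1 differences were -0.21 for GPR161, 0.14 for SUFU, -0.07 for GLI2, -0.06 for KIF7, 0.03 for GLI3 and 0.01 for SPOP.

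The interaction asks whether IGF1 moved a gene differently in the 2 populations. No Hedgehog gene was called (0 of 7, against 0.0153% of features, and 0 of 7 at an unadjusted p under 0.05, against 5.38%). The estimates ran from -0.21 for GPR161 and -0.03 for KIF7 through 0.14 for GLI2, 0.16 for SPOP, 0.17 for PTCH1 and 0.23 for SUFU to 0.28 for GLI3. Their median of 0.16 stands beside a median of 0.11 over all features, and the latter fell to 0.0040 under median-of-ratios scaling and 0.011 under quantile normalization. The interval of GLI3 was -0.14 to 0.69. Leaving out a single library moved each of these estimates by over 1.5 times toward or past 0. GPR161 moved to -0.037 and KIF7 to 0.043 without Ctrl+IGF1 replicate 2. SUFU moved to 0.12 and SPOP to 0.067 without Ctrl+IGF1 replicate 3. PTCH1 moved to 0.047 without Ctrl replicate 1, and GLI3 to 0.17 without Ctrl replicate 3. GLI2 moved to 0.047 without TMEM216+IGF1 replicate 3. Leaving out another library moved each away from 0. GPR161 moved to -0.32 and KIF7 to -0.14 without Ctrl+IGF1 replicate 3. SUFU moved to 0.32 and SPOP to 0.26 without Ctrl+IGF1 replicate 2. PTCH1 moved to 0.27 and GLI3 to 0.36 without TMEM216 replicate 3, and GLI2 to 0.29 without TMEM216+IGF1 replicate 2.

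The genes whose levels most resembled those of each tested Hedgehog gene over the 12 libraries were found by Pearson correlation of log2(TPM + 1) among features of at least 5 TPM, as a description, since libraries share composition. SUFU was closest to TMEM104 (r = 0.95) and TRMT1L (0.92), and SPOP to KCTD7 (0.94) and KCTD10 (0.94). KIF7 was closest to FBH1 (0.93) and NPIPB5 (0.93), and GPR161 to FAM135A (0.89) and NUFIP1 (0.88). GLI2 was closest to IFT172 (0.86) and SMYD5 (0.85), GLI3 to BRD3OS (0.87) and C11orf54 (0.86), and PTCH1 to MALT1 (0.86) and SCML1 (0.84). Among the 7 genes themselves the highest correlation was between SUFU and SPOP (r = 0.74 over 12 libraries), and GLI2 and GLI3 had one of -0.013. Leaving the group means out, SUFU, SPOP and GPR161 went together from library to library (r of 0.82 for SUFU with SPOP, 0.82 for GPR161 with SPOP and 0.73 for SUFU with GPR161); the libraries farthest out are among those 12.

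The rest of the pathway was described with lists by role, 70 further genes of which 52 passed the filter. Of these 52, 2 were called in TMEM216 against Ctrl averaged over IGF1, SHH higher and CCND2 lower, where 5.22% of all features were called, and none in any other comparison, where at most 1.61% were. SHH, the ligand Sonic hedgehog, read 2.98, 3.04 and 3.60 TPM in Ctrl, 3.08, 3.21 and 3.29 in Ctrl+IGF1, 4.69, 4.52 and 3.50 in TMEM216, and 5.00, 5.64 and 4.78 in TMEM216+IGF1. All but 1 of the TMEM216 libraries were above every Ctrl library. The means were 3.20 ± 0.227 and 4.69 ± 0.702 TPM (SD, n = 6 each), and SHH rose by 0.43 on the log2 scale (SE 0.09, limma adjusted p = 0.0154). Within one IGF1 condition it did not pass (limma adjusted p = 0.302 without and 0.053 with IGF1), and its interaction was 0.24 (SE 0.18, limma adjusted p = 0.754). SHH stood at 1.01 to 2.98 times the level of its receptor PTCH1, library by library.

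CCND2, the cell-cycle gene cyclin D2 and one of the reported GLI targets, read 8.07, 7.03 and 8.30 TPM in Ctrl, 7.93, 7.90 and 6.47 in Ctrl+IGF1, 5.63, 4.90 and 3.93 in TMEM216, and 4.93, 4.75 and 5.60 in TMEM216+IGF1. Every Ctrl library was above every TMEM216 library, and 4.39% of all features had no overlap, in either direction, between these sets of 6. The means were 7.62 ± 0.709 and 4.96 ± 0.626 TPM (SD, n = 6 each), and CCND2 fell by 0.54 on the log2 scale (SE 0.09, limma adjusted p = 0.00642). Within one IGF1 condition it did not pass (limma adjusted p = 0.053 without and 0.116 with IGF1). CCND2 overlaps AC008012.1 on the same strand, a transcript too low to be tested.

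**Figure D3:**
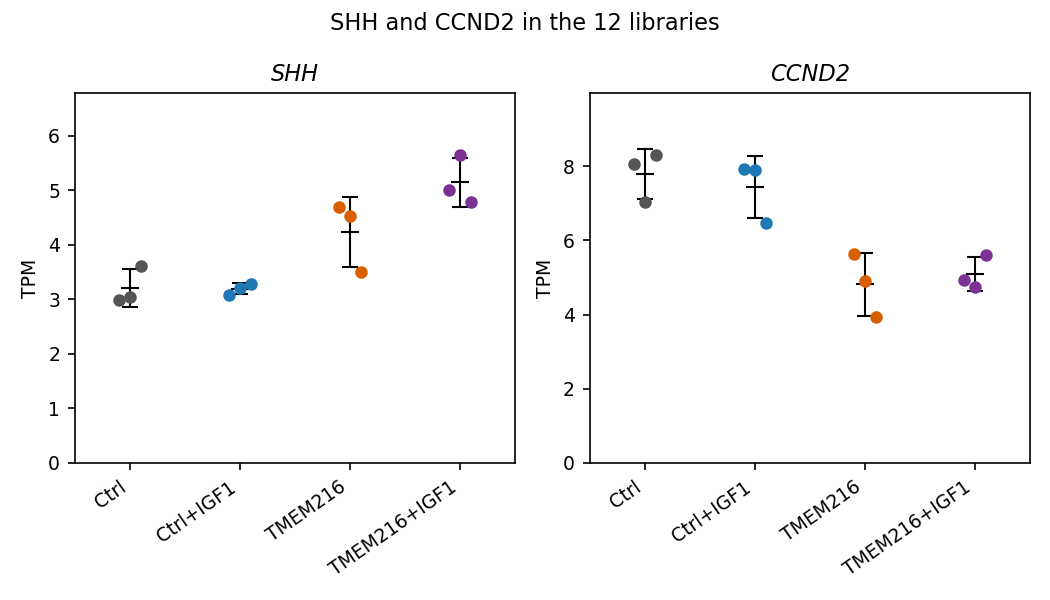
TPM of SHH and CCND2 (vertical axes from 0) in each of the 12 libraries, by group; points are libraries, bars the mean and SD of 3. SHH is higher in the TMEM216 groups with 1 library reaching down into the Ctrl range, and CCND2 is lower in the TMEM216 groups with no overlap.

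Apart from these, the ligand and release genes were not called. IHH and DHH, the other ligands, were under 1 TPM in every library. Of 9 genes in the list 5 were tested and SHH was the 1 called, higher (5.22% of all features called in that comparison). DISP1, which releases lipid-modified ligand from the cell, stood at 22.5 TPM and differed by 0.16 between populations (limma adjusted p = 0.330); DISP2 (-0.11) and SCUBE3 (-0.08) were also short of the threshold.

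On the receiving side, 6 of 11 genes were tested and 0 called in any comparison (at most 5.22% of features). The co-receptors BOC and CDON were present at 6.07 and 4.54 TPM, the co-receptor GAS1 was listed at 0, and HHIP, an antagonist that the pathway itself induces, was under 1 TPM in every library. In TMEM216 against Ctrl averaged over IGF1, MOSMO, which lowers SMO at the cell surface, had the smallest p of the list. Its log2 difference was 0.26 (limma adjusted p = 0.139). MGRN1, a ubiquitin ligase that acts with MOSMO, differed by 0.05. BOC differed by -0.07 averaged, but by -0.32 without IGF1 (limma adjusted p = 0.227) and 0.18 with it (limma adjusted p = 0.456). The BOC libraries of the compared groups did not overlap in either condition, as for 21.8% and 19.7% of all features. The BOC interaction was 0.51 (limma adjusted p = 0.754).

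Between SMO and GLI, 19 of 21 genes were tested and 0 called (at most 5.22% of features). EVC was present at 9.40 TPM while its partner EVC2 was at most 0.152 TPM. The protein kinase A genes PRKACA and PRKAR1A, at 78.4 and 238 TPM, and GNAS, the stimulatory G protein gene, at 1329 TPM, were among the most abundant genes of the pathway. In TMEM216 against Ctrl averaged over IGF1, the smallest p values belonged to ARRB1, ULK3 and GNAS. The log2 differences were -0.30 for ARRB1, a beta-arrestin (limma adjusted p = 0.128), -0.15 for ULK3, a kinase of GLI proteins, and -0.18 for GNAS.

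All 9 genes of GLI turnover were tested and 0 called (at most 5.22% of features). NUMB, which with ITCH targets GLI1, differed by -0.13 (limma adjusted p = 0.292), SPOPL, the paralogue of SPOP, by 0.19, the GLI3-processing ligase subunit BTRC by 0.18 and CUL3, the scaffold for SPOP, by 0.09.

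**Figure D4:**
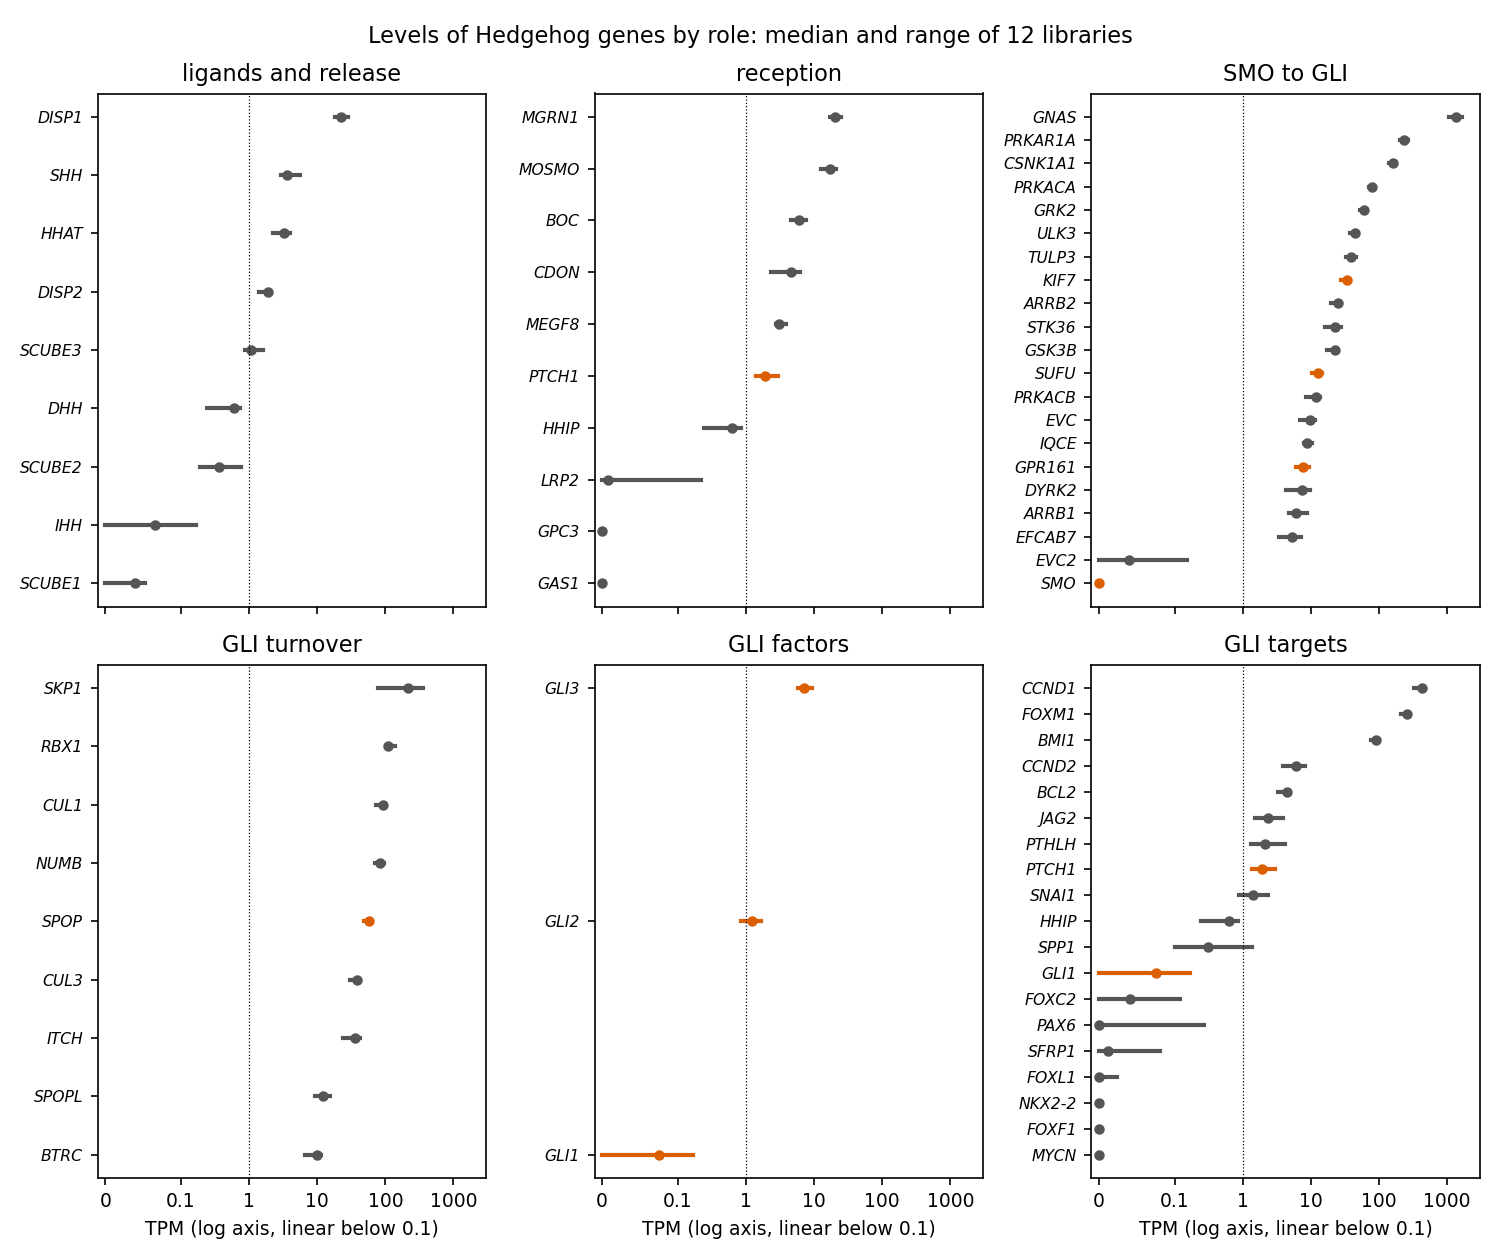
Median (point) and range (line) of TPM over the 12 libraries for Hedgehog genes sorted by role, on a log axis that is linear below 0.1 TPM; the 9 Hedgehog genes described here are orange and the dotted line is 1 TPM. The members run from SPOP at 48.8 to 63.9 TPM down to SMO at 0, and the plotted GLI targets run from CCND1 near 413 TPM down to genes at 0.

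Of 20 reported GLI targets, 9 were tested, 10 were under 1 TPM in every library and 1 was called, CCND2 (5.22% of features called in that comparison). CCND1 and FOXM1, growth genes with many other inputs, were at 413 and 251 TPM. GLI1 and HHIP, more specific readouts, were among those under 1 TPM. PTCH1, widely read as pathway output together with GLI1, ran from 1.38 to 2.95 TPM and was among those tested. BMI1 differed by 0.15 between populations (limma adjusted p = 0.200) and SNAI1 by -0.25 (limma adjusted p = 0.323). PTHLH ranged from 1.32 to 4.16 TPM and differed by 0.09 (limma adjusted p = 0.828).

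The TGF-beta genes that can feed into GLI2 were all above 1 TPM. Of 10, 10 were tested and 0 called (at most 5.22% of features); at an unadjusted p under 0.05 the count was 4 of 10 for IGF1 in Ctrl, against 6.89% of features. TGFB1 came nearest, at -0.22 in TMEM216 against Ctrl (SE 0.07, limma adjusted p = 0.0871), with no overlap between the 6 and 6 libraries, as for 4.39% of all features. SMAD3 differed by 0.17 (limma adjusted p = 0.183). SMAD2 differed by -0.22 with IGF1 (limma adjusted p = 0.840).

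Of the markers of other cells, the endothelial gene PECAM1 moved with the populations at a low level, 0.646 to 2.15 TPM. It was higher in TMEM216 with IGF1 (log2 0.68, limma adjusted p = 0.032) and averaged (0.38, limma adjusted p = 0.044), and these calls were lost in 12 of 20 and 14 of 19 alternatives. VWF, the other endothelial marker, was at most 0.107 TPM, and the summed marker level was 1.23 to 1.58 TPM in Ctrl, 1.27 to 1.45 in Ctrl+IGF1, 1.25 to 1.95 in TMEM216 and 1.91 to 2.52 in TMEM216+IGF1. What part this has in the SHH and CCND2 differences was not tested.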

How the data were processed

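The authors deposited TPM for the 12 libraries as a single table. Per the labels' protocols, libraries were made from total RNA with a TruSeq RNA kit; the tools named, per the submitters' processing notes, are HISAT2, StringTie and RSEM. The genome build, annotation and strand setting were not given in the sources used here. TPM keeps no read counts, so the depth behind each value cannot be stated.

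From the deposited TPM, log2(TPM + 1) was computed with no further scaling, and features with at least 1 TPM in 3 or more libraries were kept. The 4 groups were fitted together with limma 3.58.1 in R 4.3.3 with the data.table package (version 1.17.8), with a mean-variance trend; 7 two-sided contrasts were tested, with Benjamini-Hochberg adjustment over the 13071 features. SE and 95% intervals are limma's. The script was tested on simulated data. Tables were joined with pandas 2.3.3 and drawn with matplotlib 3.10.9 in Python 3.11.15. Gene overlap came from GENCODE v29 and promoters from RefSeq.

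The members, the gene lists and the rule for named genes were chosen with earlier results of these data known. A few genes the rule names are not reported here. The rule names all 9 genes, every other pathway gene past the threshold, up to 4 genes per list with the smallest p in the averaged contrasts, and the 2 features most like each tested gene; CDON, EVC, EVC2, GAS1, PRKACA, PRKAR1A, CCND1, FOXM1, PTHLH and the other genes named only for their level, the neighbours of SMO, and the 30 widely expressed genes were chosen after values were seen. Alternatives changed the pseudocount (to 0.1), the filter (none, or at least 5 TPM), the scaling (median-of-ratios or quantile) and the trend (none), fitted 6 libraries alone, added a block for the replicate number, left out each library in turn and, chosen after seeing the data, left out 2 libraries together.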

Additional observations from a re-analysis of the deposited data

How the results depend on the processing

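The count of Hedgehog genes called stayed 0 in each of the 7 comparisons under every alternative run, and SHH and CCND2 kept their calls (largest limma adjusted p 0.0490 over 19 alternatives for SHH, which a minimum TPM of 5 left untested, and 0.0245 over 20 for CCND2). Background counts moved more. Against 143 features called in TMEM216 without IGF1, the counts ran from 43 without Ctrl replicate 2 to 288 without the 2 libraries with the lowest component scores (TMEM216 replicate 1 and Ctrl+IGF1 replicate 3), and with IGF1, against 211, from 49 in the 6 libraries alone to 462 without Ctrl+IGF1 replicate 2. Averaged over IGF1 the count was 682, with a range from 392 without Ctrl replicate 2 to 1061 without those 2 libraries. The IGF1 counts of 4, 2 and 7 (Ctrl, TMEM216, averaged) ranged over 0 to 5, 1 to 7 and 1 to 11, and the interaction count of 2 over 1 to 3.

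Several uncalled differences near 0 changed sign when 1 library was left out, as log2 ranges. For TMEM216 averaged over IGF1 they were -0.079 to 0.019 for GLI3, -0.011 to 0.13 for GPR161, -0.033 to 0.071 for KIF7, -0.049 to 0.063 for PTCH1 and -0.028 to 0.068 for SPOP. For IGF1 averaged they were -0.12 to 0.0035 for GLI2, -0.020 to 0.084 for GLI3 and -0.037 to 0.059 for SPOP. For TMEM216 against Ctrl, both with IGF1, GPR161 ran from -0.17 to 0.11. The IGF1 difference of SUFU in Ctrl ran from -0.059 to 0.13, and the KIF7 interaction from -0.14 to 0.043. The IGF1 difference of GPR161 in TMEM216 kept its sign, from -0.39 to -0.25. Without the 2 libraries together, chosen after seeing the data, the sign also changed for GLI3 (0.0018), PTCH1 (-0.038) and KIF7 (-0.059) in TMEM216 averaged, GLI3 (-0.0097) and KIF7 (0.017) in IGF1 averaged, and the SPOP interaction (-0.013). The cause was not tested. Other uncalled differences kept their sign but moved by over 1.5 times without 1 library; those of the interaction, of GLI3 and GLI2 between populations within an IGF1 condition and of PTCH1 in Ctrl stand beside their values, and SUFU in TMEM216 averaged was 0.044 and KIF7 in IGF1 averaged -0.0092 without Ctrl+IGF1 replicate 3. PECAM1 lost its calls most often when a library was left out (largest limma adjusted p 0.153 with IGF1 and 0.115 averaged).

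With the replicate number as a block the count of Hedgehog genes called was 0 in each comparison, and the background counts were 77 without IGF1, 140 with it and 499 averaged. Same-numbered libraries deviated together (r over 0.1) in 4 of 18 pairs, and 4 of 12 libraries matched best with their own number, so the numbers were not treated as pairs.

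Depth is unknown from TPM, and 3 libraries per group limit precision most for GLI2 and PTCH1, whose levels are near the filter. SMO could not be tested under any setting; GLI1 entered only the fit without a filter, where it was not called.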
